A study of Homo sapiens with 4 samples.

Results

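NODAL, LEFTY1, LEFTY2, TDGF1, GDF3, SMAD7 and PMEPA1 are genes for ligands, a co-receptor and feedback inhibitors of the Nodal branch of TGFβ signalling. They were taken by symbol from the gene lists of both sequencing runs, and all 7 were found among 36601 genes. They were measured in single cells of H9 (WA09), an established human embryonic stem cell line, kept in the naive state in PXGL and then grown in 3D. All 4 blastoid arms and both aggregate arms came from this line. Blastoids, which are stem cell models of the blastocyst, had received 4 mM or 0 mM dimethyl α-ketoglutarate (dm-αKG, a cell-permeable form of a metabolite used by dioxygenases) for the initial 40 h and were collected at 120 h in run 1 and again in run 2. Aggregates had received 4 mM or 0 mM dm-αKG for the same 40 h and were collected at that time, in run 1 only.

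One of the culture media held an inhibitor of the pathway, and its effect on signalling was not measured. After 16 h of aggregation cultures were moved to PALLY medium, which holds A83-01 at 1 μM, an inhibitor of the ALK4, ALK5 and ALK7 receptors that carry Activin, Nodal and TGFβ signals. Blastoids had 48 h in PALLY and their last 56 h in LY medium, without the inhibitor. PALLY also holds PD0325901 and LIF, which LY lacks. The 40 h aggregates were collected partway through the PALLY step, in the inhibitor, and the 120 h blastoids after its removal, so age and medium cannot be told apart. Single-cavity blastoids were picked by hand, and the study notes that trophectoderm (TE)-like cells were lost in handling more than others.

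In the embryo, NODAL is a secreted ligand that signals, alone or with GDF1 or GDF3, through activin receptors. TDGF1 (CRIPTO) is the cell surface co-receptor that NODAL needs. The receptors activate SMAD2 and SMAD3, which enter the nucleus with SMAD4 and the DNA-binding partner FOXH1, and NODAL itself is among their targets. LEFTY1 and LEFTY2 are secreted antagonists of NODAL and also targets of the pathway. SMAD7 blocks the receptors from inside the cell, and PMEPA1 holds SMAD2 and SMAD3 away from the receptors. Both are induced by TGFβ family signals and limit them. In the human blastocyst the epiblast expresses NODAL, GDF3 and TDGF1, and primed human pluripotent stem cells depend on Activin or Nodal signals.

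RefSeq promoter windows on GRCh38.p14, each of 250 bases before and 50 bases after a transcription start, were available for 4 of the genes (NODAL, GDF3, SMAD7 and PMEPA1, 9 windows in all) and not for LEFTY1, LEFTY2 and TDGF1. They were searched on both strands for the SMAD letters CAGAC and the FOXH1 letters AATCCACA. The strand opposite to a match reads GTCTG for SMAD and TGTGGATT for FOXH1. Over all 35116 windows of 300 bases, 45.3% held the SMAD letters and 0.817% the FOXH1 letters. Of the 3 SMAD7 windows and the 4 PMEPA1 windows, 1 of each is shown. The PMEPA1 window shown is the only one of the 9 with the FOXH1 letters. The windows below, with matches in capitals, are of NODAL, SMAD7 and PMEPA1, those of the 4 genes that were higher at 4 mM in Epi-like cells. They run 5′ to 3′ on the minus strand of each chromosome, at chr10:70441632-70441931 for NODAL, chr18:48950916-48951215 for SMAD7 and chr20:57710528-57710827 for PMEPA1.
NODAL: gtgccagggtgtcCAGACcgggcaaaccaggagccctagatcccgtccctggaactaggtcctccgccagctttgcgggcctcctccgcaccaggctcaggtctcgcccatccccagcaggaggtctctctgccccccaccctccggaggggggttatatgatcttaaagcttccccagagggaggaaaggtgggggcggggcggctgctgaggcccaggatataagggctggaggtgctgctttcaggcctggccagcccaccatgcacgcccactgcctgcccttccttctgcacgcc
SMAD7: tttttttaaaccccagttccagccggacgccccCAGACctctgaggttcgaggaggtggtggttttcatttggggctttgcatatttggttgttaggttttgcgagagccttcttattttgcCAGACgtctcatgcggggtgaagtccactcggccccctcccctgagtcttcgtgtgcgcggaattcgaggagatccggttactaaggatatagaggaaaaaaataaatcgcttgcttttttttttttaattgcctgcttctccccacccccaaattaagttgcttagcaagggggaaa
PMEPA1: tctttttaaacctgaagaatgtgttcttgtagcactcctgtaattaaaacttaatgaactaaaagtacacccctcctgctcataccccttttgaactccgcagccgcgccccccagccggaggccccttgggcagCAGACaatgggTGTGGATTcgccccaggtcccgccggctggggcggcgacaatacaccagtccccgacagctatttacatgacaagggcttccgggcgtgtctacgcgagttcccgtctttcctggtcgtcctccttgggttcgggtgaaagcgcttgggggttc
The NODAL window held 1 SMAD match, the SMAD7 window 2, and the PMEPA1 window 1 SMAD and 1 FOXH1 match. The GDF3 window at chromosome 12 held 2 SMAD matches and no FOXH1 match. The other 2 SMAD7 windows and the other 3 PMEPA1 windows held 0 to 2 SMAD matches and none of the FOXH1 letters. These matches describe letters and not bound sites.

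The arms were told apart by hashtag antibodies, and after the study's limits on depth and mitochondrial share 12647 cells were kept, 10392 from blastoids and 2255 from aggregates. The kept share of hashtag singlets was 44.8% in the run 1 arm of blastoids at 0 mM and 55.7% to 89.0% in the other 5 arms. Blastoid cells were called TE-like when UMIs (counted molecules) of KRT8, KRT18, GATA3 and CLDN4 together exceeded those of POU5F1, DPPA5, DPPA4 and L1TD1, and epiblast (Epi)-like otherwise. This gave 419 TE-like and 9973 Epi-like cells, with 101 cells in which one sum was less than 2 times the other. At 4 mM there were 49 and 171 TE-like cells and 1043 and 4803 Epi-like cells in run 1 and run 2, and at 0 mM 18 and 181 TE-like cells and 408 and 3719 Epi-like cells. The median over cells was 11 to 17.5 UMIs of the epiblast rule genes in the TE-like sums, against 71 to 130 in the Epi-like sums. The 10 trophectoderm markers outside the rule summed to 1697 to 3705 UMIs per 1000000 UMIs of all genes (CPM) in the 4 TE-like sums and 50.4 to 55.2 CPM in the 4 Epi-like sums. Median depth was 25490 to 31693 UMIs per cell in run 1 and 15453 to 16481 in run 2, and 28 barcodes occurred in both runs, 8 of them among the kept cells of each.

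NODAL showed the clearest ladder over the 10 sums of cells. In Epi-like cells it was at 133 and 102 CPM at 4 mM and at 70.2 and 75.1 CPM at 0 mM, in run 1 and run 2. In aggregates it was at 40.9 CPM at 4 mM and 26.7 CPM at 0 mM. In TE-like cells it was at 1.24 and 9.33 CPM at 4 mM, and at 0 and 8.38 CPM at 0 mM, where 0 UMIs of 456611 in run 1 allow up to 6.57 CPM. The Epi-like sums stood above the aggregates at each dose, and the TE-like sums of both doses overlapped.

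**Figure D1:**
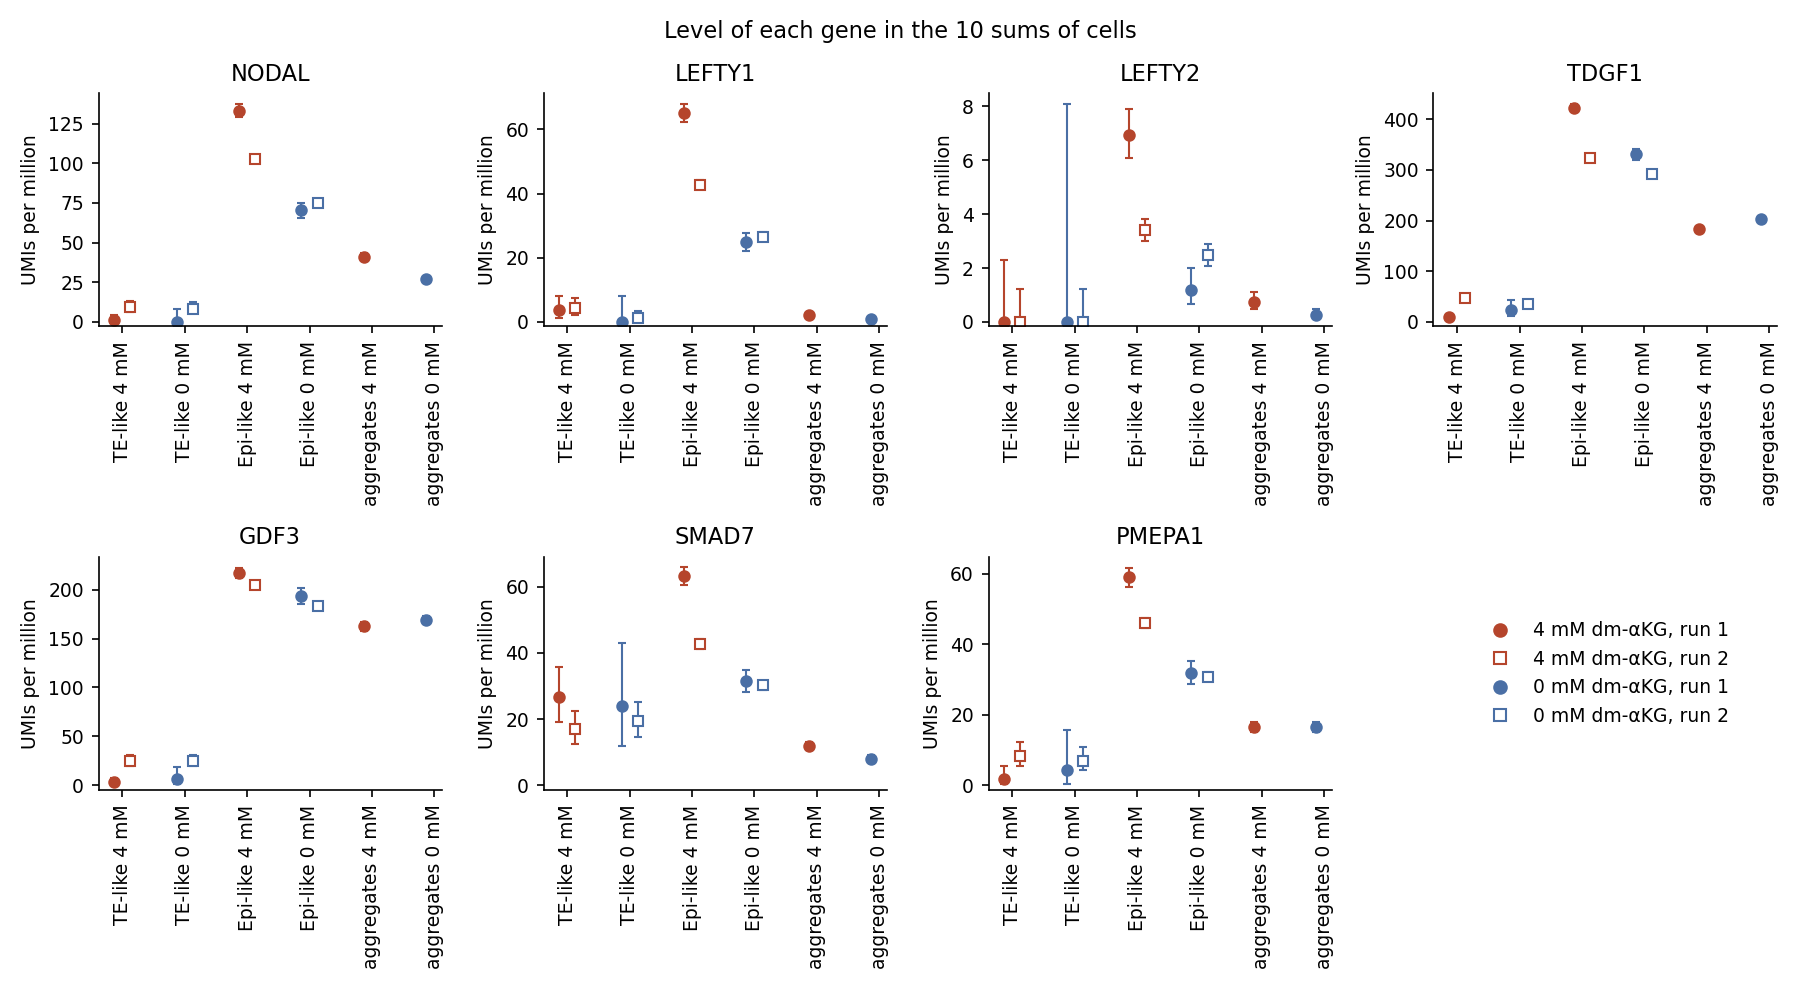
Level of each of the 7 genes, in UMIs per 1000000 UMIs of all genes (CPM), in the 10 sums of cells, with TE-like and Epi-like blastoid cells at 120 h and aggregates at 40 h, each at 4 mM and then 0 mM dm-αKG. Filled circles are run 1, open squares run 2, and bars are exact 95% Poisson intervals of the count. NODAL is at 133 and 102 CPM in Epi-like cells at 4 mM and at 70.2 and 75.1 CPM at 0 mM, and SMAD7 is the gene with TE-like levels nearest to the Epi-like ones.

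GDF3, the other ligand, changed far less over the Epi-like and aggregate sums. It was at 217 and 205 CPM in Epi-like cells at 4 mM and at 193 and 183 CPM at 0 mM, with the lower 4 mM value above the higher 0 mM one. Aggregates held 162 CPM at 4 mM and 169 CPM at 0 mM. TE-like cells held 3.10 and 25 CPM at 4 mM and 6.57 and 24.8 CPM at 0 mM, and the run 2 sums lay above the run 1 sums at both doses.

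The co-receptor gene TDGF1 was at 422 and 324 CPM in Epi-like cells at 4 mM, and at 331 and 292 CPM at 0 mM. The doses overlapped across runs, because run 2 at 4 mM lay below run 1 at 0 mM. Aggregates held 183 CPM at 4 mM and 204 CPM at 0 mM, and TE-like cells 9.29 to 47.0 CPM over the 4 sums. A 3′ library reads the end of a transcript. Of the 50-base stretches in the last 500 bases of TDGF1, 57.0% also occur in the copy TDGF1P3. How reads from these stretches were counted was not checked. For LEFTY1 that share was 8.20%, with an overlapping gene model, and it was 0 for the other 5 genes.

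LEFTY1, the antagonist, was at 65.0 and 42.7 CPM in Epi-like cells at 4 mM and at 24.8 and 26.6 CPM at 0 mM. Both 4 mM sums lay above both 0 mM sums. LEFTY1 was low elsewhere, with 2.01 CPM (62 UMIs) in aggregates at 4 mM and 0.997 CPM (36 UMIs) at 0 mM. TE-like cells had 6 and 13 UMIs of it at 4 mM, and 0 and 4 UMIs at 0 mM.

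LEFTY2 lies on chromosome 1 on the same strand as LEFTY1, with 25216 bases between their gene models in GENCODE v44. It was the rarest of the 7, at 6.95 and 3.40 CPM in Epi-like cells at 4 mM and at 1.18 and 2.47 CPM at 0 mM. The last pair rests on 14 and 152 UMIs. Aggregates had 23 UMIs at 4 mM and 9 UMIs at 0 mM, and no UMI of LEFTY2 was found in any of the 419 TE-like cells.

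The intracellular inhibitor genes split by class. SMAD7 was at 63.2 and 42.7 CPM in Epi-like cells at 4 mM and at 31.5 and 30.3 CPM at 0 mM. TE-like cells had 26.6 and 17.0 CPM of SMAD7 at 4 mM, and 24.1 and 19.5 CPM at 0 mM. The TE-like values were thus close below the Epi-like ones at 0 mM and above those of aggregates, which held 11.8 CPM at 4 mM and 8.06 CPM at 0 mM. PMEPA1 was at 58.9 and 46.1 CPM in Epi-like cells at 4 mM and at 31.9 and 30.9 CPM at 0 mM. For PMEPA1, aggregates held 16.4 CPM at 4 mM and 16.5 CPM at 0 mM, and TE-like cells 1.86 to 8.33 CPM over both doses.

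In Epi-like cells at 120 h, 6 of the 7 genes were higher at 4 mM than at 0 mM dm-αKG, and none was lower. The compound had been given for the initial 40 h. LEFTY1, NODAL, SMAD7 and PMEPA1 rose by 0.65 to 0.95 on the log2 scale, LEFTY2 rose on few counts, and TDGF1 rose by less. Over all 17006 genes tested, 5.99% were higher and 4.22% lower (edgeR quasi-likelihood test with run in the model, Benjamini-Hochberg adjusted p below 0.05). The median log2 change of the 7 genes was 0.70, against -0.01 over all genes tested.

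NODAL rose by 0.65 ± 0.0669 on the log2 scale (SE, adjusted p = 6.6e-15). LEFTY1 rose by 0.95 ± 0.0752 (adjusted p = 2.6e-22) and LEFTY2 by 0.96 ± 0.167 (adjusted p = 4.8e-06). SMAD7 rose by 0.70 ± 0.0719 and PMEPA1 by 0.70 ± 0.0705, with adjusted p of 9.4e-15 and 3.1e-15. TDGF1 rose by 0.24 ± 0.0646 (adjusted p = 0.0051), and GDF3, at 0.16 ± 0.0638, did not pass (adjusted p = 0.09). The differences had the same sign within each run for all 7 genes. They were larger in run 1 than in run 2 for 6 of them, at 1.34 and 0.70 for LEFTY1, 0.88 and 0.47 for NODAL, 0.96 and 0.51 for SMAD7 and 0.84 and 0.59 for PMEPA1. LEFTY2 was at 2.12 in run 1, where the 0 mM arm had 14 UMIs, and at 0.41 in run 2.

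**Figure D2:**
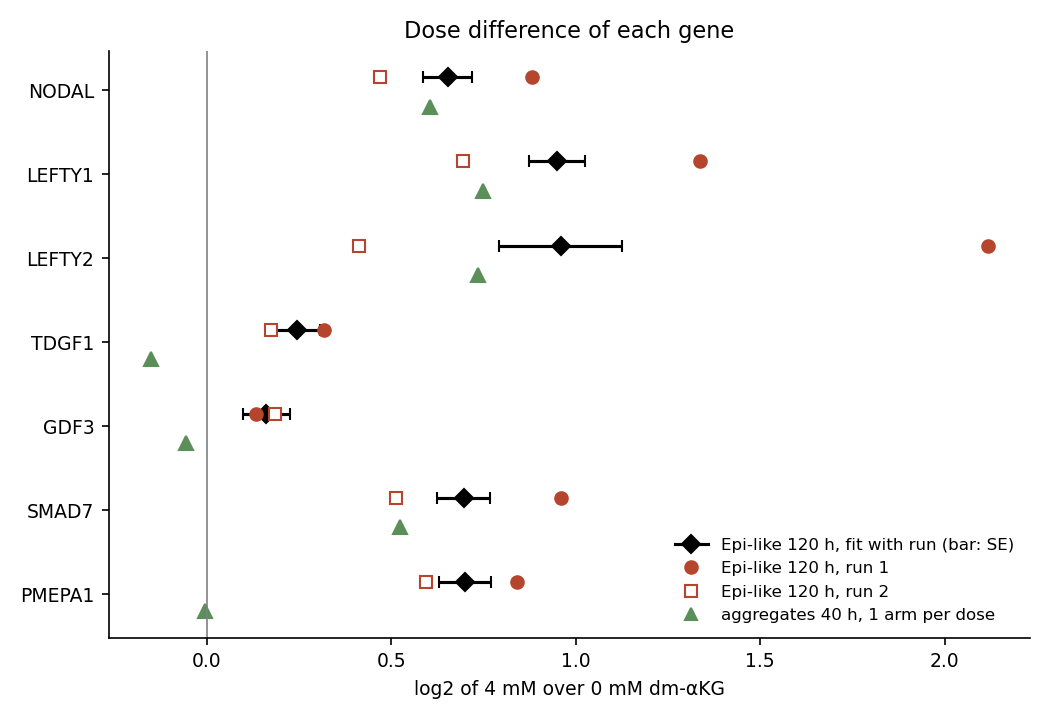
Dose difference of each of the 7 genes as log2 of 4 mM over 0 mM dm-αKG. Black diamonds are the fit with run in the model in Epi-like cells with bars of 1 SE, red symbols the same cells within run 1 (circle) and run 2 (open square), and green triangles the 40 h aggregates, which have 1 arm per dose. All Epi-like symbols lie right of 0, and aggregates lie left of it for TDGF1 (-0.15) and GDF3 (-0.06) and near it for PMEPA1 (-0.01).

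These calls rest on 4 sums with 1 residual degree of freedom per gene, so the error is mostly the spread shared over genes. With the DESeq2 Wald test PMEPA1 alone of the 7 passed, with adjusted p of 0.079 to 0.098 for NODAL, LEFTY1, TDGF1 and SMAD7 and 0.916 for LEFTY2, and without run in the model none passed, at adjusted p of 0.0672 for PMEPA1 to 0.469 for GDF3. The runs were independent experiments by the study's methods. The run 1 arm at 0 mM, with the lowest share of cells kept, enters the fits on all 4 sums and the differences within run 1. The differences within run 2 do not use it. Without that arm and without run in the model 5 of the 7 passed, and without the run 2 arm at 0 mM none did. A list of 9 primed or formative pluripotency markers summed to 712 and 557 CPM in Epi-like cells at 4 mM and to 464 and 476 CPM at 0 mM, with all 9 detected in each sum. CD24 and DNMT3B held 617 and 477 CPM of these sums at 4 mM and 412 and 419 CPM at 0 mM. Of the 9 markers 5 were higher at 4 mM in both runs and OTX2 was lower in both, at 6.27 and 9.59 CPM at 4 mM and 9.14 and 10.7 CPM at 0 mM. A list of 9 epiblast markers outside the rule summed to 1093 and 989 CPM at 4 mM and to 931 and 921 CPM at 0 mM, with 7 of the 9 higher and 2 lower in both runs. The part of these marker shifts in the result was not tested.

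Other genes of the pathway were read from lists of ligands and their processing, receptors, transducers, inhibitors and lineage targets, which without the 7 genes held 33 tested genes. The lists were chosen with earlier results of these data known. Of the 33 genes, 9 rose and 1 fell at 4 mM in Epi-like cells, where 5.99% of all 17006 genes tested rose and 4.22% fell. Their median log2 difference was 0.18, against -0.01 over all genes tested. Most of the rises were among inhibitors, with 5 of 9. SKIL, a co-repressor of SMAD2 and SMAD3 that TGFβ signals induce, rose by 0.52 ± 0.067 (adjusted p = 2.9e-10), at 148 and 114 CPM at 4 mM and 85.9 and 91.7 CPM at 0 mM. TGIF2, another SMAD co-repressor, rose by 0.51 ± 0.081. MIXL1, a mesendoderm gene downstream of Nodal in the mouse, rose by 0.55 ± 0.17 but stayed at 4.36 and 2.58 CPM at 4 mM and 2.2 and 2.00 CPM at 0 mM. The other mesendoderm genes EOMES, GSC and TBXT were below 1 CPM in every Epi-like sum. On these low counts GSC went the other way, by -1.28 ± 0.45 (edgeR adjusted p = 0.0504), and did not pass. EOMES differed by 0.45 ± 0.49 and did not pass, and TBXT had too few counts to test.

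Of the transducers, 1 of 6 passed, and FOXH1 differed by -0.01 ± 0.066. Of 7 receptor genes besides TDGF1, 1 rose and 1 fell. The gene that fell, ACVR1B, which encodes the type I receptor ALK4 and was picked out after its value was seen, fell by 0.36 on the log2 scale, to 9.92 and 9.76 CPM at 4 mM, against 12.4 and 12.7 CPM at 0 mM. In the BMP branch, read as a neighbour of the pathway, 6 of 15 tested genes rose and none fell. Over all genes tested these shares were 5.99% and 4.22%. BMP4 rose by 0.61 ± 0.134 and its receptor gene BMPR1A by 0.52 ± 0.077.

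In TE-like cells the dose made no difference that passed for any of the 5 genes tested, where 0.876% of 9129 genes were higher and 1.1% lower. SMAD7 differed by -0.11 ± 0.289 (SE, adjusted p = 0.966) and NODAL by 0.20 ± 0.494, with errors well above the 0.0719 and 0.0669 of the same genes in Epi-like cells. LEFTY1 and LEFTY2 had too few counts to test. The test of whether the dose difference itself differed between TE-like and Epi-like cells, in which 0.488% of 13107 genes were higher and 0.511% lower, passed for none of the 7, and LEFTY2, with no TE-like UMI, gave no usable estimate. SMAD7 came nearest, with an interaction of -0.78 ± 0.287 (edgeR adjusted p = 0.271), and it was the only one of the 7 below an unadjusted p of 0.05. A group of 4 of the 7, NODAL, TDGF1, GDF3 and SMAD7, passed with negative interactions when hashtags were assigned by the ratio of their counts. Leaving out the run 2 arm at 4 mM gave 2 calls in TE-like cells, with TDGF1 and GDF3 lower at 4 mM.

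At 40 h, NODAL and SMAD7 were higher in aggregates at 4 mM than at 0 mM, while PMEPA1 was level and TDGF1 and GDF3 were slightly lower. There was 1 arm per dose, so no test was possible, and the intervals cover the counting of molecules only. The ratio of 4 mM to 0 mM was 1.53 for NODAL (95% interval 1.41 to 1.67) and 1.46 for SMAD7 (1.25 to 1.71). Among 9337 genes past a minimum level set at 5 CPM, 2.12% were at least 1.5-fold higher and 1.47% at least 1.5-fold lower at 4 mM. LEFTY1 and LEFTY2 lay below that minimum, with ratios of 2.02 (1.32 to 3.14) and 3.00 (1.34 to 7.36). The ratio was 0.996 for PMEPA1, 0.961 for GDF3 and 0.900 for TDGF1. The primed or formative markers summed to 213 CPM at 4 mM and 428 CPM at 0 mM in the aggregates. CD24 and DNMT3B held 195 CPM of this sum at 4 mM and 414 CPM at 0 mM, while the other 7 markers summed to 17.1 CPM at 4 mM and 14.6 CPM at 0 mM, and 5 of the 9 were higher at 4 mM. The kept share of singlets was 55.7% at 4 mM and 71.7% at 0 mM. The part of either in these ratios was not tested.

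All 7 genes were higher in 120 h Epi-like cells than in 40 h aggregates of the same run, at both doses. LEFTY1 showed the largest ratios, 32.2 (25 to 42.2) at 4 mM and 24.9 (17.6 to 36.2) at 0 mM. SMAD7 was 5.36-fold higher at 4 mM and 3.91-fold at 0 mM, and NODAL 3.25-fold and 2.63-fold. PMEPA1 was 3.58-fold higher at 4 mM and 1.93-fold at 0 mM. TDGF1 followed at 2.31-fold and 1.62-fold, and GDF3 at 1.34-fold and 1.14-fold. LEFTY2 rested on 23 and 9 UMIs in aggregates and stood at 9.30 (6.04 to 15) and 4.75 (1.92 to 12.4). At least 1.5-fold higher values were seen for 6.41% of 9357 genes at 4 mM and 5.18% of 9269 genes at 0 mM. The median log2 ratio over these genes was -0.01 at 4 mM and -0.07 at 0 mM, so a ratio just above 1 is common. LEFTY2 lay below the minimum level for these genes at both doses and is not among them. GDF3 stayed under that line at both doses. Each ratio compares 1 arm with 1 arm, and 9 primed or formative markers were higher in sum alongside, at 712 CPM in Epi-like cells against 213 CPM in aggregates at 4 mM and 464 CPM against 428 CPM at 0 mM, with 8 and 7 of the 9 higher.

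TE-like cells had less of the pathway's signal and feedback genes than Epi-like cells of the same arms, with SMAD7 as the mildest difference. All 6 genes with enough counts were lower, where 25.9% of 12315 genes were lower and 23.1% higher. NODAL was lower by 3.62 ± 0.266 on the log2 scale (adjusted p = 2.2e-08), LEFTY1 by 3.59 ± 0.229, GDF3 by 3.23 ± 0.254, TDGF1 by 3.19 ± 0.246 and PMEPA1 by 2.52 ± 0.251. SMAD7 was lower by 0.78 ± 0.152 (adjusted p = 0.00056). LEFTY2, with 0 UMIs in TE-like cells, was at least 9.58-fold lower, taking 3 UMIs over the 4 sums together as the limit. Of the other pathway genes outside the BMP branch, 4 of 27 tested passed as higher in TE-like cells and 10 as lower. In the BMP branch 5 of 14 were higher and 6 lower. Among those with large differences were PCSK6, a protease that activates Nodal precursors, ID2, a BMP target, and FST, an Activin antagonist. These were higher in TE-like cells, by 3.07, 2.97 and 2.93 on the log2 scale. SMAD5 of the BMP branch was higher by 2.08. ID4 and MIXL1 were lower, at -2.58 and -2.61. FOXH1, the DNA-binding partner of the SMADs, was also lower, at -2.30, as were SMAD6 of the BMP branch (-2.57) and SKIL (-1.45).

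TE-like counts of epiblast genes were low but mostly above 0. Within an arm, TE-like cells held 0 to 11.2% of the Epi-like level of NODAL, 1.43% to 13.6% of that of GDF3 and 2.2% to 14.5% of that of TDGF1. The 9 epiblast markers outside the rule had medians of 2.77% and 15.6% at 4 mM and 4.27% and 15.1% at 0 mM, in run 1 and run 2. NODAL and GDF3 lay below those medians in all 4 arms and TDGF1 in 3, the exception being 7.29% from 11 UMIs in run 1 at 0 mM. No TE-like expression is therefore read from the counts of these 3 genes. Of the 419 TE-like cells 33 lay near the class cut, and with strict classes the NODAL difference was -4.13, against -3.62 over all of them. The parts of free RNA, which was not measured, and of mixed or near-cut cells in these counts were not tested. SMAD7 was at 42.1% and 39.8% of the Epi-like level at 4 mM and at 76.5% and 64.3% at 0 mM. It exceeded the highest of the 9 markers in 3 of the 4 arms, and in run 2 at 0 mM MIR302CHG was higher, at 65.9%. PMEPA1 was above the medians in all 4 arms, at 3.15% and 18.1% at 4 mM and 13.7% and 22.8% at 0 mM, but within the range of the markers in each. The 10 primitive endoderm markers summed to 11.1 to 131 CPM in the TE-like sums and to 23.3 to 29.9 CPM in the Epi-like sums. The highest of these sums is the 18 cells of run 1 at 0 mM, which also hold the highest SMAD7 ratio, and CER1, a Nodal antagonist of the endoderm, had no UMI in any sum.

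Counted by cells, NODAL had a UMI in 90.2% and 70.7% of Epi-like cells at 4 mM and in 72.1% and 61.3% at 0 mM. TE-like cells, at similar depth in the same run, had a UMI of NODAL in 4.08% and 11.7% at 4 mM and in 0 of 18 and 9.94% of cells at 0 mM. Run 1 was sequenced deeper, so every cell was thinned to 5000 UMIs, a depth that all kept cells reached. The share with NODAL was then 44.2% and 36.8% of Epi-like cells at 4 mM, 26.5% and 29.2% at 0 mM, and 18.2% and 12.5% of aggregate cells at 4 and 0 mM. LEFTY1 was found in 24.1% and 16.5% of thinned Epi-like cells at 4 mM and in 10.5% and 11% at 0 mM, against 1.08% and 0.487% of aggregate cells at 4 and 0 mM. For each of the 7 genes the thinned share was higher at 4 mM than at 0 mM in both runs of Epi-like cells. TDGF1 had the highest shares, 82.4% and 75.1% at 4 mM and 75.7% and 71.4% at 0 mM.

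**Figure D3:**
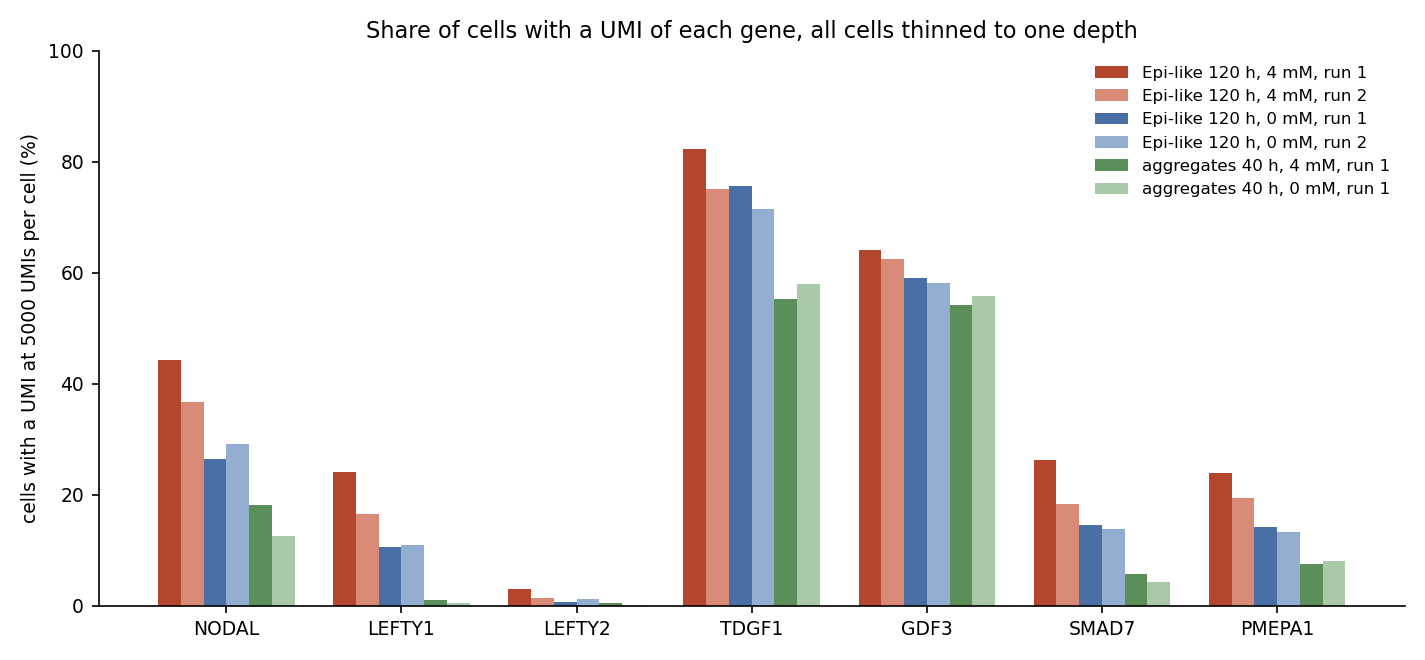
Percent of cells with at least 1 UMI of each gene after thinning every cell to 5000 UMIs, in Epi-like cells at 120 h and in aggregates at 40 h, at 4 mM and then 0 mM dm-αKG. LEFTY1 is at 24.1% and 16.5% in Epi-like cells at 4 mM, at 10.5% and 11% at 0 mM and at 1.08% and 0.487% in aggregates, while GDF3 and TDGF1 are above 50% in every bar.

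LEFTY1 was unevenly spread over cells. The 10% of Epi-like cells with most LEFTY1 held 41.3% and 52.5% of its UMIs at 4 mM and 51.2% and 63.6% at 0 mM. For SMAD7, at a similar level, the corresponding 10% held 30.7% and 40.6% at 4 mM and 39.5% and 47.3% at 0 mM, and for the more abundant GDF3 22.9% and 25.1% at 4 mM and 24.1% and 26.3% at 0 mM. LEFTY2, found in few cells, was at 84.0% to 100%. At 5000 UMIs per cell the variance of LEFTY1 over cells was 1.45 and 1.35 times its mean at 4 mM and 1.18 and 1.32 times at 0 mM, where counting alone gives about 1. TDGF1 had ratios of 1.39 and 1.33 at 4 mM and 1.34 and 1.36 at 0 mM, but on higher means. Its means were 2.11 and 1.62 UMIs at 4 mM and 1.66 and 1.46 at 0 mM. Those of LEFTY1 were 0.331 and 0.210 at 4 mM and 0.121 and 0.134 at 0 mM. Similar ratios at such unlike means do not show an equal relative spread. The ratio was 1.05 to 1.09 for SMAD7 and 1.05 to 1.12 for PMEPA1 over the 4 Epi-like sums. Single Epi-like cells reached 21 UMIs of LEFTY1, 22 of NODAL and 49 of TDGF1, all in run 1 at 4 mM. An Epi-like cell held a mean of 5.09 and 3.94 of the 7 genes at 4 mM and 4.13 and 3.45 at 0 mM, and a TE-like cell 1.02 to 1.17.

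Among the 21 pairs of genes, LEFTY1 and LEFTY2 were found together in the same Epi-like cells most above expectation. At 4 mM, 119 and 155 cells held both, where the shares of each within 10 classes of cell depth give 87.3 and 88.0. At 0 mM, 11 and 79 cells held both, against 5.91 and 34.7 expected. The ratios were 1.36 and 1.76 at 4 mM and 1.86 and 2.27 at 0 mM. LEFTY2 with PMEPA1 followed in run 2, at 1.16 and 1.21 at 4 mM and 0.865 and 1.44 at 0 mM. LEFTY1 with PMEPA1 was at 1.11 and 1.19 at 4 mM and 0.985 and 1.2 at 0 mM. The 0 mM values of run 1 rest on 408 cells, and there both PMEPA1 pairs lay below 1. NODAL and LEFTY1 were at 1.04 and 1.12 at 4 mM and at 1.12 and 1.21 at 0 mM, and NODAL and LEFTY2 at 1.02 and 1.16 at 4 mM and 1.12 and 1.29 at 0 mM. In run 2, 5 pairs exceeded 1.1 at both doses, each with LEFTY1 or LEFTY2 in it. Pairs with GDF3 or TDGF1 lay between 0.97 and 1.05, and these genes are found in 89.4% to 98.7% of the cells, which leaves the ratio little room. The cells of a sum share a library, so no test was made.

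**Figure D4:**
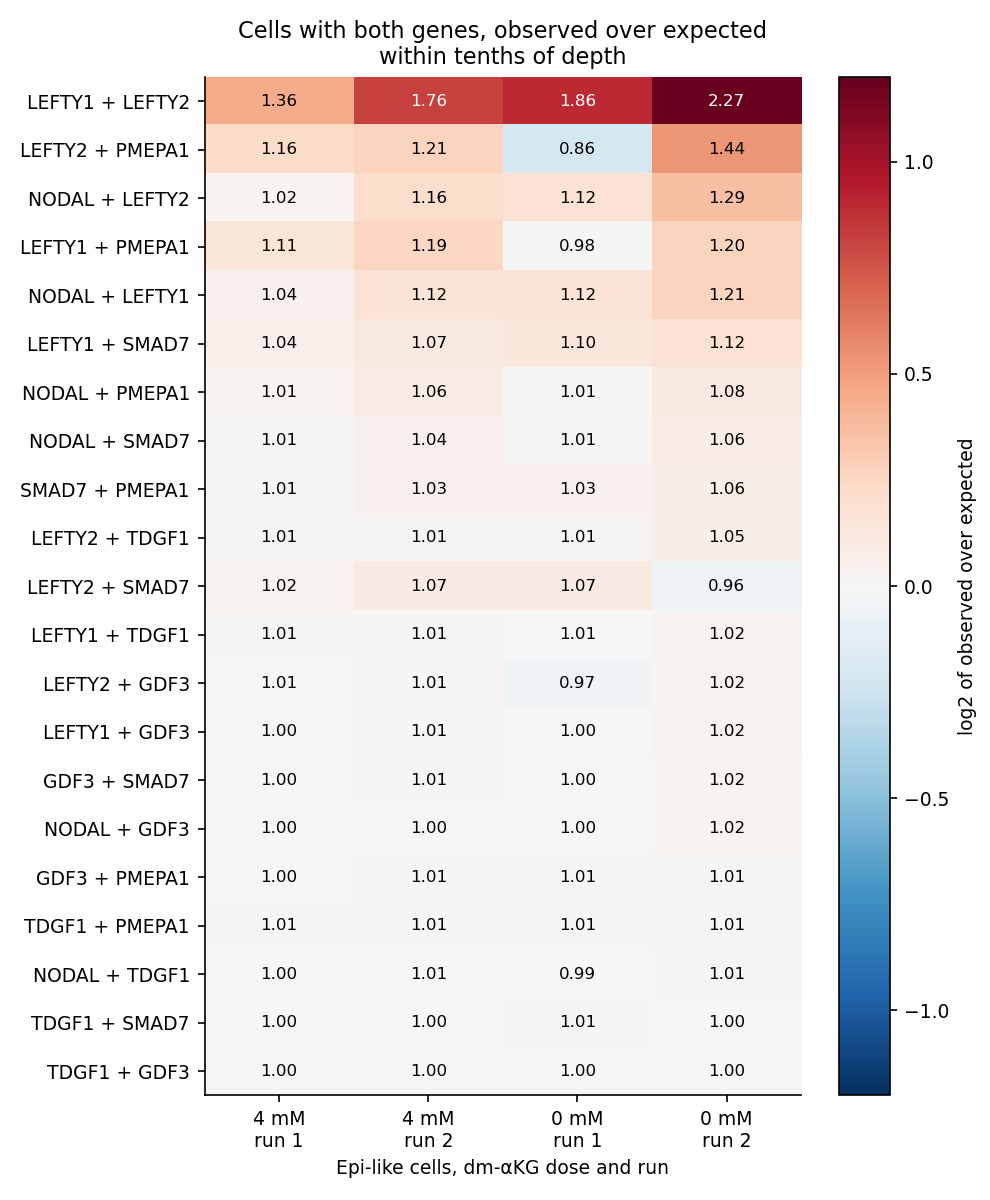
Observed over expected number of Epi-like cells with both genes of a pair, for the 21 pairs (rows) in the 4 Epi-like sums (columns, 4 mM and then 0 mM dm-αKG). The number is the ratio and the colour its log2, with the expected count taken within 10 classes of cell depth. LEFTY1 with LEFTY2 is highest in each column, at 1.36, 1.76, 1.86 and 2.27.

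In aggregates the same pairs were rare. LEFTY1 and LEFTY2 met in 1 cell at 4 mM and in none at 0 mM, with 1.22 and 0.25 expected. NODAL and LEFTY1 met in 44 cells at 4 mM (34.9 expected) and in 19 cells at 0 mM (17.8 expected). In TE-like cells LEFTY2 had no UMI, so no pair with it could occur. Of the 20 TE-like cells with NODAL in run 2 at 4 mM, 16 also held TDGF1, where 9.58 were expected, and of the 18 at 0 mM, 10 did, where 7.72 were expected.

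Cells with more NODAL more often held its antagonist. Among Epi-like cells of run 2 at 4 mM, LEFTY1 was found in 60.5% of 1241 cells with 3 or more NODAL UMIs, in 34.4% of 2156 cells with 1 or 2 and in 22.2% of 1406 cells with none. At 0 mM the shares were 48.2% of 595 cells, 27.5% of 1683 and 14.8% of 1441. Standardised to the depth of the whole sum, they were 57.3%, 34.4% and 23.6% at 4 mM and 44.8%, 27.3% and 15.4% at 0 mM. Run 1 gave the same order, with standardised shares of 71.7%, 44.7% and 29.9% at 4 mM and 70.9%, 26.7% and 15.5% at 0 mM, although some depth classes there hold only 1 cell. Within each class of NODAL count in run 2, the LEFTY1 share was higher at 4 mM than at 0 mM. In run 1 the top class was nearly level, at 71.7% and 70.9%. The classes of 1 or 2 and of 3 or more span several counts, and NODAL itself was higher at 4 mM. NODAL was therefore not held equal between doses within them.

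PMEPA1 followed NODAL less steeply, at 59.0%, 47.4% and 39.8% of run 2 cells at 4 mM and 44.7%, 36.2% and 29.9% at 0 mM, standardised in the same way. SMAD7 was flatter still, at 50.1%, 45.7% and 40.7% at 4 mM and 42.3%, 36.8% and 31.4% at 0 mM, and in run 1 at 0 mM neither PMEPA1 nor SMAD7 kept this order. In aggregates at 4 mM, LEFTY1 was found in 19 of 172 cells with 3 or more NODAL UMIs (11%), 25 of 449 with 1 or 2 (5.57%) and 13 of 433 with none (3.00%). At 0 mM it was found in 4 of 79 (5.06%), 15 of 512 (2.93%) and 15 of 610 (2.46%).

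**Figure D5:**
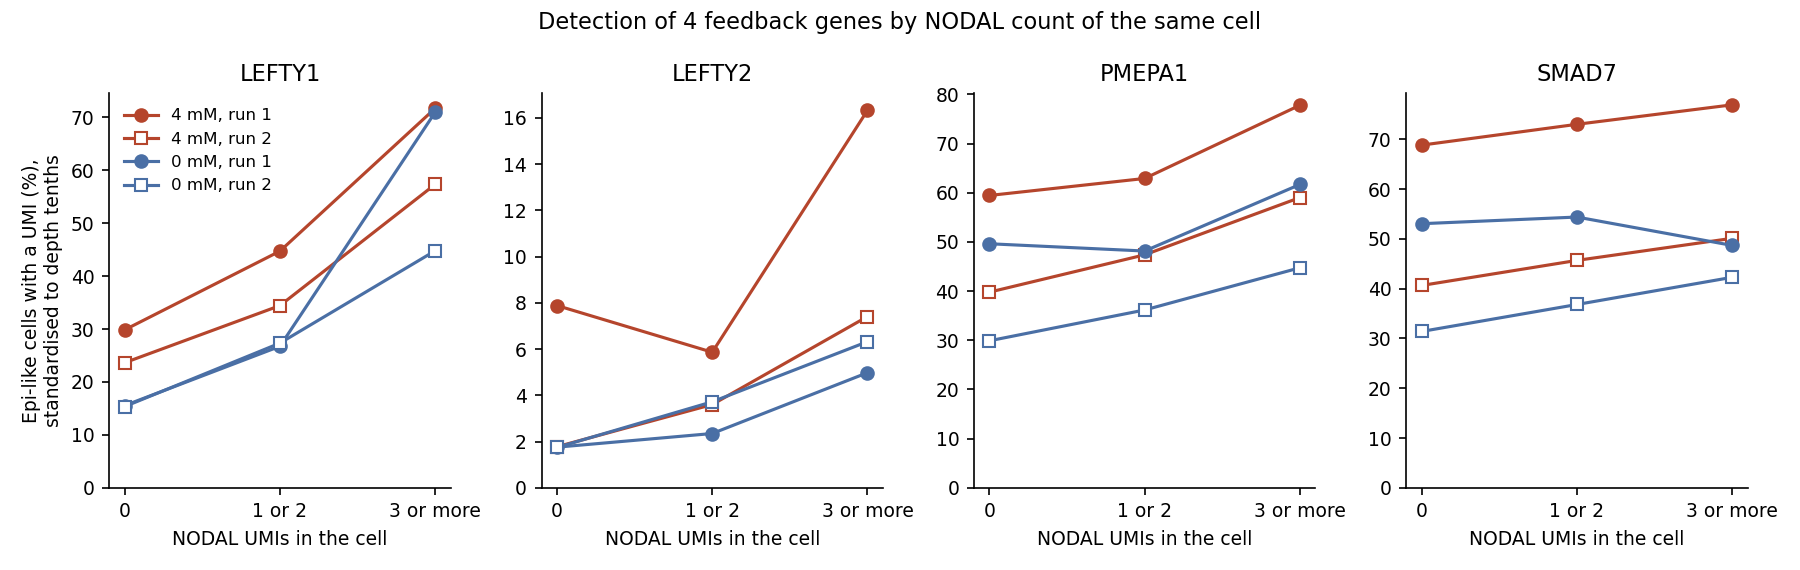
Percent of Epi-like cells with a UMI of LEFTY1, LEFTY2, PMEPA1 or SMAD7 by the number of NODAL UMIs in the same cell, standardised to 10 classes of cell depth. Red is 4 mM and blue 0 mM dm-αKG, filled circles run 1 and open squares run 2, and the lines join the 3 classes of NODAL count. In run 2 LEFTY1 is at 57.3% of cells with 3 or more NODAL UMIs and 23.6% of cells with none at 4 mM, and at 44.8% and 15.4% at 0 mM.

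Over the 10 sums, the pattern of GDF3 was most like those of RAB34, PLPP2 and LINC02582 (Pearson r of log2 CPM of 0.996, 0.995 and 0.995 among 4985 genes). TDGF1 was most like RGCC, MAD2L2 and DPPA4 (0.992, 0.992 and 0.99), and DPPA4 is one of the genes that set the classes. NODAL was most like MYSM1, VCAN and MAPKAP1 (0.992, 0.991 and 0.989), and PMEPA1 like SLC39A10, DND1 and ZNF483 (0.985, 0.984 and 0.981). SMAD7, the only one of these 5 genes with much of its level in TE-like cells, was most like NPAT, IER2 and PPP4R3A (0.961, 0.946 and 0.946), and its r with NODAL was 0.309. The 10 sums share 2 libraries and the gap between classes. LEFTY1 and LEFTY2 lay under the mean of 20 CPM required.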

How the data were processed

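Cells of 6 hashtagged arms were measured by 10x Genomics 3′ single-cell RNA sequencing. The deposited UMI counts per gene and barcode, with hashtag counts, had been made by the authors with Cell Ranger 6.1.2 (bcl2fastq 2.20.0.422) on the 10x GRCh38 reference, and the submitters' processing notes also name Seurat 4.3.0. Run 1 held 144122560 UMIs over 9431 barcodes and run 2 200278140 over 15133.

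Hashtags were assigned here with HTODemux of Seurat 5.3.0 (quantile 0.99), giving 6012 and 10400 singlets. Hashtag doublets were removed, and no doublet caller was run within arms. Cells above 15% mitochondrial UMIs, or with under 7000 UMIs in run 1 or 5000 in run 2, were left out. The unit of analysis was the sum of counts over the cells of 1 arm and class, 10 sums in all. The quasi-likelihood test of edgeR 4.0.16 (R 4.3.3) was applied after filterByExpr and TMM scaling, with run, or arm where classes were compared, in the model, and p-values were Benjamini-Hochberg adjusted over all genes tested (threshold 0.05). The scripts were tested on simulated data. A run marks a shared capture and library, and deviations of the doses of a run from the dose means correlated at 0.566 over 5093 genes in Epi-like and 0.158 over 4612 genes in TE-like sums. Ratios within a run or between arms add 0.5 CPM when on the log2 scale. Intervals are exact 95% Poisson intervals or, for ratios of 2 counts, exact binomial ones, and cover counting error only. Shares at 5000 UMIs are expected values under thinning, with no cell left out. Co-detection was compared with expectation within 10 classes of depth.

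The named genes are the 7 members, the genes of pathway lists past the threshold with the largest changes (at most 10 a comparison), and for each member the 3 genes closest in pattern with a mean of at least 20 CPM. The members and lists were chosen with earlier results of these data known. Alternatives were DESeq2 1.42.0, RLE factors, no low-count filter, strict classes, other cell filters, another hashtag assignment, no run in the model and leaving out runs or arms. Sequences are RefSeq promoter windows on GRCh38.p14, and gene positions are from GENCODE v44. A gene that the rule for named genes takes is not reported here.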

Additional observations from a re-analysis of the deposited data

Results flagged for a closer look

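Of the 7 genes, 3 had dose differences of opposite sign at 40 h and at 120 h. In aggregates the log2 ratio of 4 mM to 0 mM was -0.15 for TDGF1, -0.057 for GDF3 and -0.0050 for PMEPA1, while both runs of 120 h Epi-like cells gave positive values, of 0.32 and 0.17 for TDGF1, 0.13 and 0.19 for GDF3 and 0.84 and 0.59 for PMEPA1. The difference was not tested, because aggregates had 1 arm per dose. For PMEPA1 the counting interval of the aggregate ratio, 0.883 to 1.12, includes 1.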

How the results depend on the processing

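In Epi-like cells 1736 genes passed for dose with run in the model, 6 of the 7 among them. With the DESeq2 Wald test 157 passed and 1 of the 7, and without the 5% of cells with most UMIs 1050 passed and 6 of the 7. The fit without run as a replicate block called 16 genes and 0 of the 7. Leaving out 1 of the 4 arms, which takes run out of the model and assumes that the lone sum of a dose varies like the others, gave 5 to 735 genes and 0 to 6 of the 7. The lowest values came without the run 2 arm at 0 mM, and 54 and 157 genes passed without the run 1 arm at 4 mM and at 0 mM. All 7 genes kept a positive difference under every alternative run, and under RLE factors, strict classes, no low-count filter and the other cell filters 6 or 7 passed, and 5 in 1 fit over the 8 blastoid sums. GDF3 passed with all singlets (adjusted p = 0.00426).

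In TE-like cells 180 genes passed, 14 with DESeq2, 28 without the replicate block and 43 to 193 leaving out an arm, with 0 to 2 of the 7 (81 genes without the run 2 arm at 0 mM). Signs of single genes there were unstable, mostly on few counts. Without the block the log2 differences were -0.16 for NODAL, -0.12 for TDGF1, 0.026 for SMAD7 and -0.19 for PMEPA1. With hashtags assigned by count ratio they were -0.54 for NODAL, -0.52 for TDGF1 and -0.14 for PMEPA1. DESeq2 gave -0.35 for TDGF1 and -0.34 for PMEPA1. GDF3 was at 0.10 with strict classes, SMAD7 at 0.026 without the 5% of cells with most UMIs, and PMEPA1 at -0.0041 with all singlets. Without the run 2 arm at 4 mM the differences were -2.35 for NODAL, -1.83 for TDGF1, 0.37 for SMAD7 and -1.77 for PMEPA1, and without the run 1 arm at 0 mM -0.46 for NODAL, -0.23 for TDGF1, 0.11 for SMAD7 and -0.30 for PMEPA1. GDF3 was at 0.24 without the run 1 arm at 4 mM and at 1.24 without the run 2 arm at 0 mM.

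Between TE-like and Epi-like cells 6032 genes passed, and 2800 to 5613 leaving out run 2 or run 1. All 6 tested members stayed lower and past the threshold under the 11 alternatives. The interaction of dose and class gave 131 calls, 46 with DESeq2, and 233 with hashtags by count ratio, where 4 of the 7 passed. With strict classes its value was 0.059 for TDGF1 and 0.010 for GDF3. It was not run without single arms, which leaves no residual degrees of freedom. Pairs above 1.1 at both doses of run 2 numbered 5, and 8 when depth was left out of the expectation. The causes of these changes were not tested. The run 1 TE-like sum at 0 mM, of 18 cells, limits each TE-like value.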
